A study of Mus musculus with 6 samples.

Results

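The genes described here are transcription factors of the epithelial-mesenchymal transition (EMT), by which epithelial cells lose their junctions and take on mesenchymal traits, together with factors that keep cells epithelial. The list held the repressors Zeb1, Zeb2, Snai1, Snai2, Twist1 and Twist2 and the antagonists Esrp1, Esrp2, Ovol1 and Ovol2. They were taken by gene symbol, with the probe set of highest mean over the 6 arrays for each gene. Of the 10 genes, 9 were found by symbol among the 19505 genes measured, and Zeb2 was not analysed here. Transcript levels came from 393P cells, written 9393P in some labels, a mouse lung adenocarcinoma line. The 3 AC9 samples carried AC9 as a stable transfection, and the 3 VECTOR samples carried the empty vector. Both groups were kept in RPMI medium with fetal bovine serum, received their plasmid by jetPRIME transfection and were selected with puromycin or G418. The labels do not state which drug each group received or whether it was a clone or a pool, so these cannot be told apart from AC9.

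ZEB and SNAIL proteins are zinc finger repressors that bind E-box sequences in promoters of epithelial genes such as the cadherin gene Cdh1. TWIST proteins are basic helix-loop-helix factors that act on the same programme. ESRP proteins are RNA-binding splicing regulators that hold the epithelial isoforms of genes such as Fgfr2 and Cd44, and OVOL proteins are zinc finger factors that repress Zeb1 in epithelial cells. In lung adenocarcinoma lines of this kind, ZEB1 and the microRNA-200 family are known to repress each other. None of the 12 microRNA genes listed for these repressors had a probe set with that symbol, so they were not analysed here.

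Levels are log2 intensities, so a difference of 1 is a doubling. Differences were tested with limma, and a gene was called at a Benjamini-Hochberg adjusted p under 0.05 over all genes. A bound for dim signals was set at 6.06, the 90th percentile of the negative control probe sets. Array medians were 6.42 to 6.46, and correlations across genes were 0.994 to 0.996 within groups and 0.985 to 0.988 between them. Adcy9, the adenylyl cyclase gene whose synonym is AC9, read 6.73 ± 0.12 in AC9 and 6.12 ± 0.03 in VECTOR (SD, n = 3 each; adjusted p 0.00264). Of 7 epithelial markers, 6 were above the bound in both groups, and Cldn7 averaged 6.02 in AC9, under the bound, and 6.30 in VECTOR. Krt7 and Epcam were called higher (0.48 and 0.44) and Krt19 lower (-0.47), and the mean level over the 7 was 10.63 to 10.68 on the AC9 arrays and 10.59 to 10.67 on the VECTOR arrays. Of 9 fibroblast markers, 8 lay under the bound in both groups. Their mean level was 4.95 to 5.03 in AC9 and 4.92 to 5.05 in VECTOR, and none was called (0 by limma, and 0 when p was left unadjusted). Of 8 leukocyte markers, 7 lay under the bound in both groups and 2 were called higher, Cd14, a lipopolysaccharide coreceptor, and Cd52, which did not pass with any single array left out (adjusted p 0.0526 to 0.124). Their mean level was 5.24 to 5.36 in AC9 and 4.97 to 5.14 in VECTOR, and their part in the results was not tested. Whether replicates were cultured separately is not stated, so the p-values reflect variation among these arrays that could be technical alone.

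Zeb1 was the one member called at this threshold. Of the 9 measured members, 1 was called higher in AC9, which is 11.1%, against 8.26% of all genes called higher. None was called lower (0 at an unadjusted p under 0.05), against 9.29% of all genes. Taken in either direction, the members' 11.1% compares with 17.6% of all genes, so their share is near the background. The groups did not overlap in 1 of the 9 (11.1%), against 35.1% of all genes. The median log2 change was 0.17 over the 9 members and 0.02 over all genes. Medians here and for the lists of genes include those under the bound at their measured values.

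**Figure D1:**
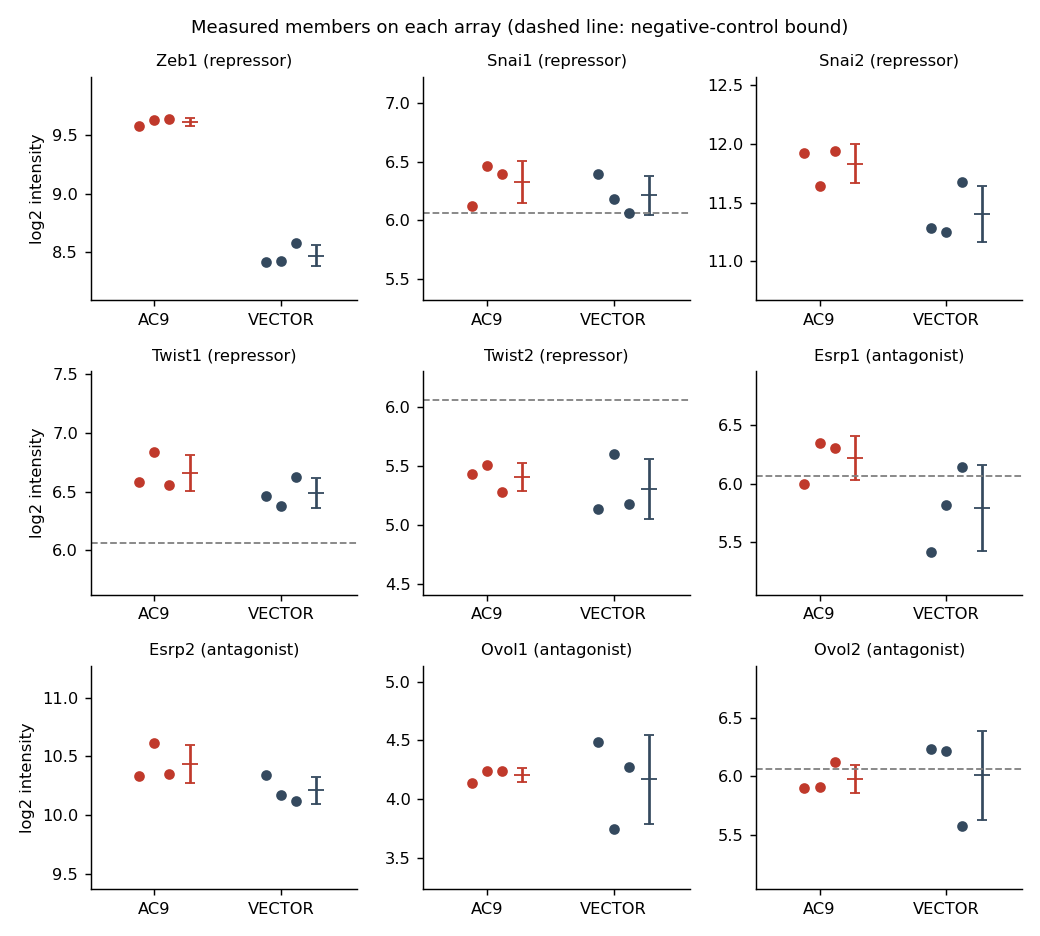
Log2 intensity of the 9 measured members on each array, AC9 on the left and VECTOR on the right of each panel; points are arrays, bars show the mean and SD (n = 3), and every panel spans the same number of log2 units. The Zeb1 arrays separate by group, at 9.57 to 9.63 in AC9 and 8.42 to 8.58 in VECTOR, while the groups overlap in the other 8 genes; the dashed line is the bound of 6.06 where it falls within the panel.

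Zeb1, a repressor with zinc finger clusters at both ends of the protein, read 9.57, 9.63 and 9.63 on the AC9 arrays, against 8.42, 8.42 and 8.58 on the VECTOR arrays. All AC9 arrays lay above all VECTOR arrays, as did those of 17.3% of all genes. The means were 9.61 ± 0.03 in AC9 and 8.47 ± 0.09 in VECTOR (SD, n = 3 each). The difference was 1.14 (SE 0.09, 95% interval 0.93 to 1.35), equal to 2.20-fold (limma, adjusted p 6.95e-05). Ordered by signed change, Zeb1 stood at place 95 among the 19505 genes, and the 95th percentile of all genes' log2 changes was 0.47.

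The 3 genes whose pattern over the 6 arrays was most like that of Zeb1 were Scaf11, Etf1 and Plk2. Pearson's r was 0.999 for each, over 6 arrays that fall into 2 groups, so a gene with a clear group difference and little spread scores high on this measure. Etf1, the translation release factor, read 10.63, 10.65 and 10.65 in AC9, against 9.85, 9.89 and 10.00 in VECTOR. Plk2, a polo-like kinase, read 9.67, 9.66 and 9.72 in AC9, against 8.20, 8.26 and 8.35 in VECTOR, and Scaf11 differed by 0.56 (SE 0.09).

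Snai2, the SNAIL family member also called Slug, did not pass the threshold. It read 11.92, 11.64 and 11.94 on the AC9 arrays, against 11.28, 11.25 and 11.68 on the VECTOR arrays. The groups overlapped through VECTOR replicate 3, which read above AC9 replicate 2. The difference was 0.43 (SE 0.14, 95% interval 0.11 to 0.74; limma adjusted p 0.0645). Without VECTOR replicate 3 it was 0.56 and passed (adjusted p 0.0194), and without AC9 replicate 2 it was 0.52 and passed (0.0499). Without any other single array the adjusted p was 0.175 to 0.180. An intensity-trended robust prior (adjusted p 0.000637), array weights (0.0486), the removal of dim genes (0.0302) and the replicate block (0.0389) also gave a call.

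Snai1, the SNAIL family member best known as a direct repressor of Cdh1, stayed close to the bound. It read 6.13, 6.46 and 6.39 in AC9, against 6.39, 6.18 and 6.07 in VECTOR. The groups overlapped, and the difference was 0.11 (95% interval -0.17 to 0.39; adjusted p 0.601). In the RefSeq table of promoters, 5 of the 10 genes had an entry, and that of Snai1 alone held the E-box searched for, CAGGTG on either strand (CACCTG when read on the other strand). SNAIL1 is known in human cells to bind an E-box in its own promoter, which is why the window is shown. It covers the 250 bases before the gene start, at chr2:167537945-167538194 on the plus strand of GRCm38.p6, with the E-box in capitals, starting 126 bases before the gene start.
Snai1: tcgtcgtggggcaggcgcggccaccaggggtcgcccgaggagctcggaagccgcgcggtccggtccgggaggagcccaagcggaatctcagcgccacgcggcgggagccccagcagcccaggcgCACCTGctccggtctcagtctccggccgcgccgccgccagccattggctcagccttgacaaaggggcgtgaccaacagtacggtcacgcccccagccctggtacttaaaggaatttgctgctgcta
Of all measured genes with a promoter in that table, 19.2% held the motif in this window. A match is a description of the letters and not a bound site.

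Within the arrays, the log2 difference of Snai1 minus Snai2 averaged -5.51 ± 0.31 in AC9 and -5.19 ± 0.38 in VECTOR (SD, n = 3 each). The AC9 minus VECTOR value was -0.31 (exact permutation test, two-sided, p = 0.30, adjusted p 0.60 over 2 pairs). With 3 arrays against 3, this test cannot go below 0.10. The levels of 2 probe sets are not comparable, so only the change of their difference is of use.

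Twist1, a regulator of mesoderm and neural crest, read 6.58, 6.83 and 6.56 in AC9, against 6.46, 6.38 and 6.63 in VECTOR. Its means, 6.66 in AC9 and 6.49 in VECTOR, lay under the 95th percentile of the negative controls (6.81). The groups overlapped, and the difference was 0.17 (95% interval -0.08 to 0.42; adjusted p 0.363). Twist2, its close relative, lay under the bound on all 6 arrays. It read 5.43, 5.51 and 5.28 in AC9, against 5.14, 5.60 and 5.17 in VECTOR, so no size of change is given (adjusted p 0.678).

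Neither ESRP gene passed the threshold. Esrp2 was bright and read 10.33, 10.62 and 10.35 in AC9, against 10.34, 10.17 and 10.12 in VECTOR. VECTOR replicate 1 lay within the AC9 range, and the difference was 0.22 (SE 0.11, 95% interval -0.03 to 0.47; adjusted p 0.222). With the trended robust prior the adjusted p was 0.0496. The interval's lower end of -0.03 limits any decrease to that size under this fit.

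Esrp1 was dim. It read 6.0, 6.35 and 6.31 in AC9, against 5.42, 5.81 and 6.14 in VECTOR. VECTOR replicate 3 lay above AC9 replicate 1, and only the AC9 mean was over the bound. The measured fold was at least 1.12, which sets no minimum rise because Esrp1 was not called (limma adjusted p 0.138). Without VECTOR replicate 3 the adjusted p was 0.0384, and with the replicate block 0.0468. Without VECTOR replicate 1 it was 0.356. The VECTOR arrays of Esrp1 spread more than the AC9 arrays, with SDs of 0.19 in AC9 and 0.36 in VECTOR. The difference of Esrp1 minus Esrp2 within arrays averaged -4.22 ± 0.15 in AC9 and -4.42 ± 0.48 in VECTOR (SD, n = 3 each). Esrp1 was under the bound on AC9 replicate 1 and on VECTOR replicates 1 and 2. The difference within arrays therefore rests in part on background signal (exact permutation test, two-sided, p = 0.60, adjusted p 0.60).

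The OVOL factors were dim. Ovol1 lay under the bound on all 6 arrays, and Ovol2 was over it on AC9 replicate 3 and VECTOR replicates 1 and 2. Ovol1 read 4.13, 4.24 and 4.24 in AC9, against 4.48, 3.75 and 4.27 in VECTOR. Ovol2, whose product is known to repress Zeb1 and hold epithelial identity, read 5.90, 5.91 and 6.12 in AC9, against 6.24, 6.21 and 5.57 in VECTOR. In both genes each group mean lay under the bound and the VECTOR arrays spanned the AC9 arrays, so no size of change is given (adjusted p 0.918 for Ovol1 and 0.929 for Ovol2).

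**Figure D2:**
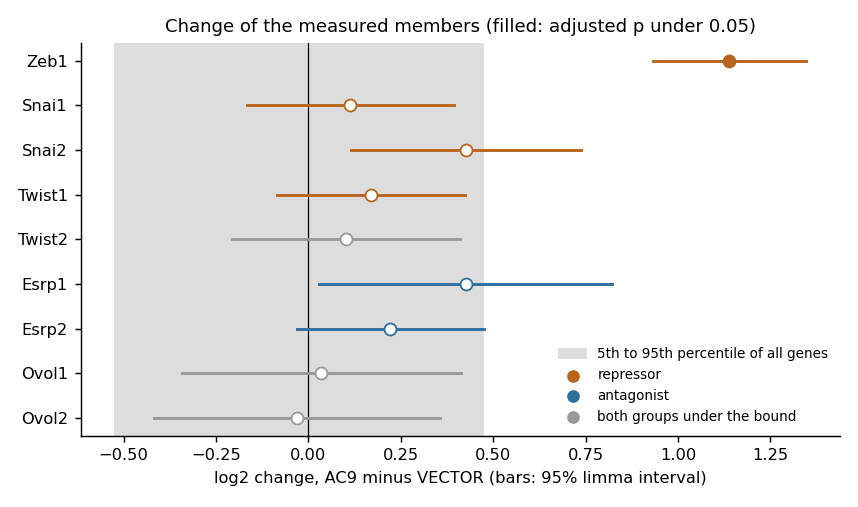
Log2 change (AC9 minus VECTOR) of the 9 measured members with 95% limma intervals; filled points passed an adjusted p of 0.05, grey points had both groups under the bound, and the grey band spans the 5th to 95th percentile of all 19505 genes, -0.52 to 0.47. Zeb1 at 1.14 lies outside the band and Snai2 at 0.43 within it. The Esrp1 point is its measured difference, with the VECTOR mean under the bound.

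The epithelial genes that ZEB or SNAIL proteins are known to repress moved in both directions, with more of them lower. Of 23 measured, 6 fell (26.1%) and 3 rose (13%), against 9.29% and 8.26% of all genes, and the median log2 change was -0.23 against 0.02 over all genes. Groups did not overlap with AC9 lower in 11 of the 23 genes, or 47.8%, against 17.7% of all genes, and with AC9 higher in 3, or 13%, against 17.3%. Of the 23, 19 were above the bound in some group, and the part of signal level in these shares was not tested. Without AC9 replicate 1 or VECTOR replicate 1, 6 of the 23 passed in place of 9. The lists in this and the following paragraphs were chosen with earlier results of these data known, and no set test was run. Background probe sets, which match no transcript, were also lower in AC9 without overlap for 19 of 23, with log2 differences of -0.50 to 0.01 over the 23, and their part in the falls was not tested.

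Crb3, an apical polarity protein, read 5.75, 5.64 and 6.15 in AC9, against 7.0, 6.53 and 7.0 in VECTOR. It was at least 1.66-fold lower (adjusted p 0.00355), a lower limit because the AC9 mean was under the bound. Spint1, an inhibitor of membrane serine proteases, read 7.17, 7.44 and 7.30 in AC9, against 7.94, 8.31 and 7.77 in VECTOR, and changed by -0.71 (SE 0.14, adjusted p 0.00872). All AC9 arrays of both genes lay below all VECTOR arrays. Llgl2, a basolateral polarity protein, Sema3f, a semaphorin that ZEB proteins repress in lung cancer cells, and Muc1, an apical mucin, changed by -0.58, -0.51 and -0.46. The fall of Muc1 did not pass with AC9 replicate 1 (adjusted p 0.0666) or VECTOR replicate 1 (0.0548) left out. Cdh3, the gene of P-cadherin, was called lower (adjusted p 0.00413) with both groups under the bound, so no size is given.

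Ocln, the tight junction protein occludin, went the other way and read 7.53, 7.72 and 7.37 in AC9, against 6.87, 6.96 and 6.67 in VECTOR. It rose by 0.70 (SE 0.12, adjusted p 0.00400). Cldn4, a claudin of tight junctions, rose by 0.50 and Epcam, an epithelial adhesion molecule, by 0.44 (SE 0.12, adjusted p 0.0293). Cldn4 did not pass with AC9 replicate 1 left out (adjusted p 0.0712), nor without AC9 replicate 3 (0.0695) or VECTOR replicate 1 (0.0618). Epcam did not pass without AC9 replicate 1 (0.0755) or 2 (0.0983), or without any of the VECTOR arrays (0.0501 to 0.0949). Llgl2, Sema3f, Muc1, Cdh3 and Cldn4 were named after their values were seen.

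Cdh1, the E-cadherin gene and a well known target of these repressors, read 12.57, 12.64 and 12.62 in AC9, against 12.76, 12.90 and 12.87 in VECTOR. The AC9 arrays all lay below the VECTOR arrays, and the difference was -0.23 (SE 0.09, 95% interval -0.43 to -0.03), short of the threshold (adjusted p 0.115). It passed with the trended robust prior (adjusted p 0.00105) and with dim genes left out (0.0472). The interval's lower end of -0.43 bounds the size of the fall under this fit.

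**Figure D3:**
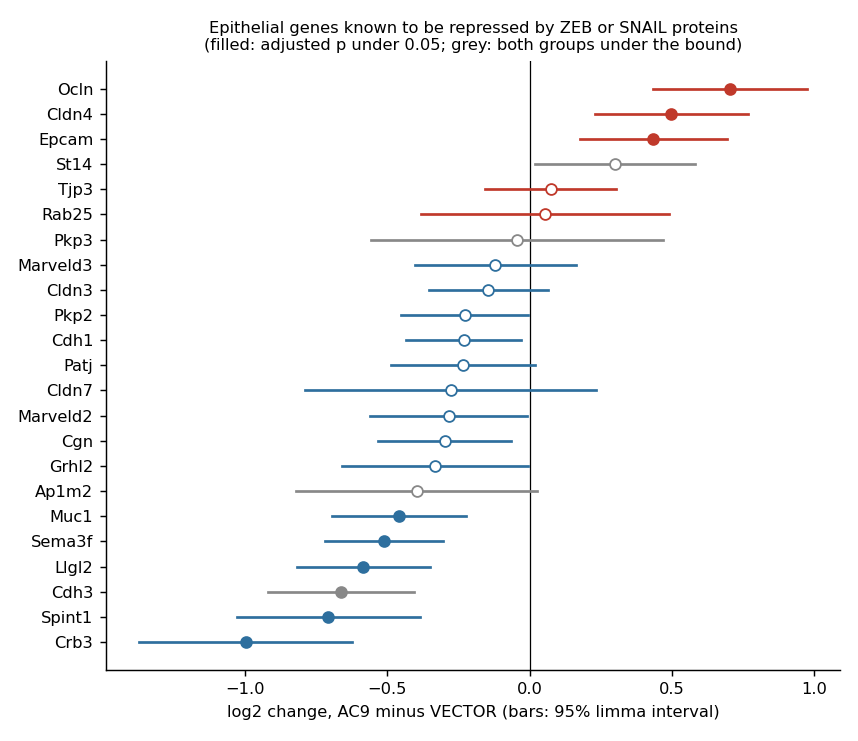
Log2 change (AC9 minus VECTOR) with 95% limma intervals for the 23 epithelial genes known to be repressed by ZEB or SNAIL proteins, ordered by change; filled points passed an adjusted p of 0.05 and grey points had both groups under the bound. Crb3, Spint1, Cdh3, Llgl2, Sema3f and Muc1 were called lower, and Ocln, Cldn4 and Epcam were called higher. The points of Crb3, Cldn7, Marveld2 and Grhl2 are measured differences, with only the AC9 mean under the bound.

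Promoters of this list are shown because the E-box is the sequence that ZEB and SNAIL proteins bind. Of the 14 genes with an entry in the RefSeq table, 10 held at least 1 E-box (71.4%) in the 250 bases before a gene start, against 19.2% of measured genes and 17.2% of all promoters in the table. The list was made of known targets, so its share is a description. Other epithelial transcription factors, described below, held an E-box in 7 of 12 genes with an entry (58.3%). The remaining lists held it in 0.0% to 25.0% of such genes. Of the 10 repressed epithelial genes with it, 3 were called higher and 2 lower. Of the 4 without it, 1 was called lower, as were 3 of the 9 with no entry. The following windows, from GRCm38.p6, belong to the 5 called genes with E-boxes, 2 that fell and 3 that rose, with each E-box in capitals. Crb3 (chr17:57061951-57062200, plus strand) held 3 of them, which start 118, 63 and 7 bases before the gene start, and a second entry of Crb3, shifted along the same bases, held the same 3. Muc1 (chr3:89228806-89229055, plus strand) held 2, at 234 and 70 bases. Ocln (chr13:100552499-100552748, minus strand) held 2, at 213 and 68 bases, and a second entry for it held none. Epcam (chr17:87635729-87635978, plus strand) held 2, at 187 and 19 bases, and Cldn4 (chr5:134946935-134947184, minus strand) held 1, at 14 bases.
Crb3: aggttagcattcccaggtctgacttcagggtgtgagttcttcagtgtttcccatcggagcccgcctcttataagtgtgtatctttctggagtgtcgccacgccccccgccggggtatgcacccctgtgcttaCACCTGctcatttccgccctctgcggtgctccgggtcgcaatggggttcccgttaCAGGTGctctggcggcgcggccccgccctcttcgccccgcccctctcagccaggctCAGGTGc
Muc1: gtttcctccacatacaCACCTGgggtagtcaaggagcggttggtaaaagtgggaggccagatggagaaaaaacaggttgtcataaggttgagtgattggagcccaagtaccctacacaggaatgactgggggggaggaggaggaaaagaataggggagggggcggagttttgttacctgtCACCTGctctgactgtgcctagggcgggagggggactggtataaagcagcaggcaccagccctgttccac
Ocln: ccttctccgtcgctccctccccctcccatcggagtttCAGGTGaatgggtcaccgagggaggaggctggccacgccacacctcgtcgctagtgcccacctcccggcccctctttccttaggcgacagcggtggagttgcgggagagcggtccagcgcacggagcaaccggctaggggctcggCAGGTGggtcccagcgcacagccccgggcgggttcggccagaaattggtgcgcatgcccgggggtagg
Epcam: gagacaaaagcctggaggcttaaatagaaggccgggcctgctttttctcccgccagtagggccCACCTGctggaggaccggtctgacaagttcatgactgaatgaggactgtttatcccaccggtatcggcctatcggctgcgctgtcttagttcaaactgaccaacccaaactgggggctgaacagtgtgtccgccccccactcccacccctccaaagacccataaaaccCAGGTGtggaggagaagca
Cldn4: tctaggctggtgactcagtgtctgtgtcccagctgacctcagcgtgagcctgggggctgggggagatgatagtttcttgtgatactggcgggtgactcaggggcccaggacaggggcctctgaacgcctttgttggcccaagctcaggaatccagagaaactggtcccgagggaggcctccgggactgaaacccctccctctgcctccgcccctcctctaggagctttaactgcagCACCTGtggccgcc

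Of 20 mesenchymal genes measured, 2 rose and 2 fell (10.0% each), near the shares of all genes called (8.26% higher and 9.29% lower), with a median log2 change of -0.06. Without overlap, 3 were higher in AC9 (15%, against 17.3% of all genes) and 5 lower (25%, against 17.7%). Tnc, the matrix protein tenascin C, read 6.90, 7.08 and 7.22 in AC9, against 7.98, 8.22 and 8.10 in VECTOR, a change of -1.03 (SE 0.11, adjusted p 0.000386). S100a4, a calcium-binding protein tied to motility, changed by -0.93, and Msn, the membrane linker moesin, rose by 0.50. The S100a4 means were 6.09 in AC9, close to the bound, and 7.01 in VECTOR. Fn1, the fibronectin gene, named after its values were seen, rose by 0.37 (adjusted p 0.0354), a call kept without VECTOR replicate 3 but lost without any of the other 5 arrays (adjusted p 0.0684 to 0.115). The intermediate filament gene Vim read 13.36, 13.46 and 13.45 in AC9, against 13.42, 13.51 and 13.53 in VECTOR (difference -0.06, 95% interval -0.27 to 0.14; adjusted p 0.693). Cdh2, the N-cadherin gene, averaged 9.11 ± 0.03 in AC9 and 9.29 ± 0.06 in VECTOR (SD, n = 3 each; adjusted p 0.209). Cdh1, Cdh2 and Vim were all well above the bound in both groups.

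The array reads whole genes, so the isoforms that ESRP proteins control were not measured. Of 19 genes with such exons, 2 rose and 2 fell (10.5% each), near the shares of all genes called (8.26% and 9.29%), with a median of 0.08. Without overlap, 6 were higher in AC9 (31.6%, against 17.3% of all genes) and 4 lower (21.1%, against 17.7%). Cd44, the hyaluronan receptor, read 11.88, 11.95 and 11.94 in AC9, against 12.32, 12.32 and 12.31 in VECTOR, a change of -0.39 (SE 0.09, adjusted p 0.0123). Osbpl3, an oxysterol-binding protein, changed by -0.51, while the kinase gene Slk rose by 0.57 and Itga6, integrin alpha 6, by 0.41. Without AC9 replicate 1 only 1 of the 19 passed, and Cd44 (adjusted p 0.0547), Slk (0.0504) and Osbpl3 (0.0649) lost their calls. Osbpl3 also lost its call without VECTOR replicate 1 (0.0678). Cd44 was named after its values were seen. Fgfr2, the growth factor receptor with the best known ESRP-controlled exons, lay under the bound in both groups.

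Of 23 other splicing regulators linked to EMT, 3 rose (13%) and 1 fell (4.35%), together 17.4% against 17.6% of all genes, with a median of 0.12. Without overlap, 6 were higher in AC9 (26.1%, against 17.3% of all genes) and 4 lower (17.4%, against 17.7%). Qk, the quaking RNA-binding protein that is known to act on mesenchymal exons, read 11.56, 11.62 and 11.65 in AC9, against 11.25, 11.16 and 11.23 in VECTOR, and rose by 0.40 (SE 0.09, adjusted p 0.0133). Rbm47, an epithelial RNA-binding protein, read 9.17, 9.11 and 9.23 in AC9, against 9.58, 9.59 and 9.55 in VECTOR, and changed by -0.40 (SE 0.09, adjusted p 0.0131). In both genes the groups did not overlap. Khdrbs3, a relative of Sam68, rose by 0.58, and Hnrnph1, a nuclear ribonucleoprotein named after its values were seen, by 0.40. Each of these calls was lost without 1 array: Qk without AC9 replicate 3 (adjusted p 0.0532), Rbm47 without AC9 replicate 2 (0.0522), and Khdrbs3 without AC9 replicate 1 (0.0519) or 3 (0.0627). Hnrnph1 did not pass without AC9 replicate 1 (0.0764) or 2 (0.0589), or VECTOR replicate 1 (0.0541) or 2 (0.0570). The list held 2 calls in place of 4 without AC9 replicate 1 or 3.

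The repressors are known to act through corepressors. Of 26 corepressors and cofactors, 2 rose (7.69%, against 8.26% of all genes) and 0 fell by limma (1 at an unadjusted p under 0.05). Without overlap, 8 were higher in AC9 (30.8%, against 17.3% of all genes) and 2 lower (7.69%, against 17.7%). The trended robust prior and the removal of dim genes each gave 7 calls. Kdm1a, the histone demethylase recruited by SNAIL proteins, rose by 0.44 (SE 0.10, adjusted p 0.0126), and Suz12, a Polycomb subunit, by 0.42. Both lost their calls without AC9 replicate 1 (adjusted p 0.0519 and 0.0535), which left 0 of the 26. Ctbp1, the corepressor bound by ZEB proteins, averaged 10.34 ± 0.13 in AC9 and 10.51 ± 0.06 in VECTOR (SD, n = 3 each; adjusted p 0.296).

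Genes that set the stability of the repressor proteins were mostly higher in AC9 where called. Of 23 measured, 8 rose (34.8%) and 1 fell (4.35%), against 8.26% and 9.29% of all genes, and the median was 0.23. The groups did not overlap with AC9 higher in 14 of them, or 60.9%, against 17.3% of all genes. Of the 23, 21 were above the bound in some group. The share of all genes above it ranged from 54.1% to 54.6%, which was not counted in the same way. The part of signal level in these shares was not tested. Siah2, a ubiquitin ligase, read 9.56, 9.41 and 9.43 in AC9, against 8.89, 8.81 and 8.88 in VECTOR, and rose by 0.61 (SE 0.09, adjusted p 0.00207). Usp37 and Usp1, deubiquitinases that act on SNAIL proteins and also in the cell cycle and DNA repair, rose by 0.77 and 0.65. The other genes that rose, named after their values were seen, were the ligase gene Siah1b (0.60), the deubiquitinase gene Usp10 (0.48) and the kinase genes Atm (0.41), Csnk1e (0.36) and Gsk3b (0.29). Enzymes that remove ubiquitin and enzymes that add it were both among them. Gsk3b, whose product marks SNAIL1 for degradation, passed narrowly (adjusted p 0.0467) and did not pass with any single array left out (0.0747 to 0.130). Siah1b, Usp10, Siah2, Usp1 and Usp37 passed with each single array left out. Atm did not pass without AC9 replicate 1 (adjusted p 0.0676) or 3 (0.0551) or VECTOR replicate 2 (0.0540), nor Csnk1e without AC9 replicate 2 (0.0699) or 3 (0.0715) or VECTOR replicate 1 (0.0542). The kinase gene Prkd1 was called lower with both groups under the bound, and did not pass without AC9 replicate 1 or 3, or VECTOR replicate 2 or 3 (0.0624 to 0.111). The count was 5 in place of 9 without AC9 replicate 3, and 6 without AC9 replicate 1 or VECTOR replicate 2. Protein levels were not measured.

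Among other transcription factors linked to EMT, 4 of 16 rose (25.0%) and 2 fell (12.5%), against 8.26% and 9.29% of all genes, with a median of 0.02. Sox9, a progenitor factor, rose by 0.88 and Hmga2, a chromatin protein of embryonic and tumour cells, by 0.83. Prrx2, a paired-type homeobox factor, read 8.35, 8.33 and 8.39 in AC9, against 9.42, 9.50 and 9.31 in VECTOR, a change of -1.05 (SE 0.09, adjusted p 0.000112). Foxq1, a forkhead factor named after its values were seen, changed by -0.76. Runx1 and Tead1, also named after their values were seen, rose by 0.40 and 0.45. Runx1 did not pass without AC9 replicate 1 or 3 or VECTOR replicate 1 (adjusted p 0.0697 to 0.0799), and Tead1 passed without VECTOR replicate 3 but not without any of the other 5 arrays (0.0692 to 0.136). The list held 4 calls in place of 6 without AC9 replicate 1 or 3, or VECTOR replicate 1. Of 16 other epithelial transcription factors, 2 fell (12.5%, against 9.29% of all genes) and 0 rose by limma (1 at an unadjusted p under 0.05), with a median of -0.12. Without overlap, 6 were lower in AC9 (37.5%, against 17.7% of all genes) and 1 higher (6.25%, against 17.3%). Grhl3, a grainyhead factor of surface epithelia, read 6.61, 6.59 and 6.29 in AC9, against 9.29, 9.64 and 9.47 in VECTOR, a change of -2.97 (SE 0.13). Foxa2, a forkhead factor of lung epithelium, changed by -0.42 (SE 0.09, adjusted p 0.0103). Without AC9 replicate 3 or VECTOR replicate 1, 3 of the 16 passed.

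**Figure D4:**
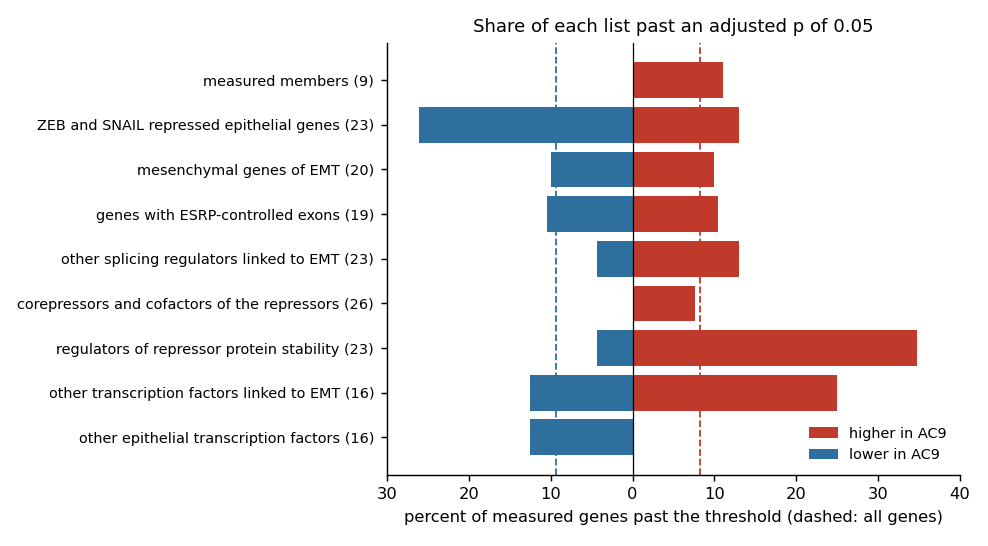
Percent of the measured genes of each list past a limma adjusted p of 0.05, lower in AC9 to the left of 0 and higher in AC9 to the right, with the number measured in parentheses; dashed lines give the same share of all genes, 9.29% lower and 8.26% higher. The repressed epithelial genes reach 26.1% on the lower side and the regulators of repressor stability 34.8% on the higher side.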

How the data were processed

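Each of the 6 RNA samples went onto its own Clariom S array from Affymetrix, per the labels' protocols. The deposited values are log2 intensities per probe set, for which the submitters' processing notes name RMA. As RMA includes quantile normalization, a shift common to all genes would be removed. RMA software and annotation versions: not given in the sources used here. All 6 columns matched a sample by name.

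GEO's platform annotation named 19505 genes; for 55 with several probe sets, the one of highest mean was taken. The AC9 minus VECTOR contrast was fitted in R 4.3.3 by limma 3.58.1 (eBayes after lmFit, two-sided, unfiltered), with Benjamini-Hochberg adjustment over all genes. The fit was checked on simulated data. Where 1 group lay under the negative-control bound, the fold was taken against the bound of each array of the dim group. The gene's own value was used if higher. Such a fold is a lower limit on the measured fold, and sets no minimum for a gene that was not called. The number of arrays limits the precision.

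The members and lists were chosen with earlier results of these data known. Genes were named by a rule: all members, Cdh1, Epcam, Vim and Cdh2, and from each list up to 3 called genes of largest change without overlap, and the 3 genes most correlated with Zeb1; other named genes of the lists were picked after their values were seen or for their role. Deviations of same-numbered arrays correlated at 0.01, 0.08 and 0.01, and those of differently numbered arrays at -0.09 to 0.09. Such small values cannot show whether the replicates were paired, and the main fit did not pair them. Alternatives were another prior, repeated quantile normalization, median centring, a filter on dim genes, the mean of probe sets, array weights, a replicate block, each array left out, a stricter threshold and a stricter bound.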

Additional observations from a re-analysis of the deposited data

Results flagged for a closer look

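Among probe sets without a gene name here, which no comparison above used, 149 of 2634 passed an adjusted p of 0.05 with AC9 higher and 126 with AC9 lower, in a limma fit over all probe sets that are not controls. No outlier test was made in groups of 3.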

How the results depend on the processing

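Zeb1 was called higher in all 13 refits and at an adjusted p of 0.01, with a log2 change of 1.11 to 1.19. The count of members called higher, 1, became 3 with the trended robust prior, 2 with dim genes left out, 2 with array weights and 3 with the replicate block, and was 1 to 3 with single arrays left out. The count called lower was 0 throughout. The main fit did not pair the arrays by replicate number, and the block gave 1410 genes higher and 1652 lower, against 1612 and 1812. Single arrays left out gave 968 to 1491 higher and 1206 to 1534 lower, and an adjusted p of 0.01 gave 729 and 941. At that threshold 0 genes with ESRP-controlled exons, 0 splicing regulators, 0 corepressors, 5 stability regulators and 1 epithelial factor passed. The trended prior gave 10 splicing regulators, 7 corepressors and 5 epithelial factors; without dim genes these were 8, 7 and 5. With single arrays left out, the counts were 6 to 9 repressed epithelial genes, 3 to 4 mesenchymal genes, 1 to 5 genes with ESRP-controlled exons, 2 to 4 splicing regulators, 0 to 2 corepressors, 5 to 8 stability regulators, 4 to 6 other EMT factors and 2 to 3 epithelial factors. Members above the bound numbered 6, or 3 with the 95th percentile of the negative controls (6.81), and 6 to 7 with single arrays left out. The Snai1 minus Snai2 value ranged from -0.52 to -0.16 and the Esrp1 minus Esrp2 value from -0.049 to 0.42, changing sign without VECTOR replicate 1, with Esrp1 partly at background. The group means of the Ovol genes lie under the bound, so the following are values at or near background and not sizes of change. Ovol1 changed sign with array weights (-0.000645) and without VECTOR replicate 2 (-0.17), ranging to 0.19 with single arrays left out. Ovol2 did so without AC9 replicate 1 (0.00783) or 2 (0.00167), or VECTOR replicate 1 (0.084) or 2 (0.07), ranging down to -0.25. Over 63 named genes and 814 values, 732 kept direction and side of the threshold, 65 lost the call, 11 gained it and 6 changed sign. Fewer arrays or fewer genes tested alter these counts by construction; other causes were not tested. Signal near the negative controls limits Snai1, Twist1, Esrp1, Twist2 and the Ovol genes. Among called genes it also limits Adcy9, Muc1, S100a4, Crb3 and Cdh3.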
